A study of Homo sapiens with 4 samples.

Results

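The tripartite motif (TRIM) family was followed in U937 cells with and without pirin. Members were the genes whose only symbol in the platform annotation is TRIM followed by digits, and each gene was represented by its brightest probe set, that with the highest mean log2 signal over the arrays. This gave 55 TRIM genes of 19775 genes in all. U937 is a human myelomonocytic line derived from a histiocytic lymphoma. The tested cells carried a lentiviral pSICO-R vector with 1 short hairpin against PIR, the gene of the iron-binding nuclear protein pirin, and the control cells carried the same vector without a hairpin; the series' design text states that PIR protein was not detectable by Western blotting in the knock-down cells. For each of the 2 lines, total RNA of 3 extractions was mixed into 1 pool, and each pool was hybridised to 2 Affymetrix HG-U133 Plus 2.0 arrays. The labels do not say whether the lines are clones.

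Both arrays of a condition read the same RNA, so they show the error of the hybridisation, not that of the culture. Each ± below is an SD over these arrays (n = 2), 1 pool was set against 1 pool, and no p-value for the knock-down can be given. PIR, the targeted gene, had a signal of 83.4 and 91.5 in the knock-down pool, against 1812.9 and 1881.7 in the empty-vector pool. Of 14 myelomonocytic markers, 12 had a probe set of their own and 10 were measured, whereas MPO and CD14 were below the brightness limit defined below. These markers were not level between the pools: on the log2 scale the 10 ran between -0.69 for AZU1, a granule protein, and 1.90 for ITGAM, the integrin CD11b, with 7 positive and a median of 0.32. ITGAM met the size rule described below, at 1449.5 and 1250.4 in the knock-down pool, against 323.8 and 370.5 in the empty-vector pool, though not on its brightest probe set whose identifier ends in neither _x_at nor _s_at (0.89). CSF1R and PTPRC each had 0.69, and SPI1 and LYZ had overlapping arrays. The part of this in the TRIM values was not tested. Of the other cell types, none of 7 epithelial markers, 2 of 4 B cell markers (CD79A and PAX5) and 1 of 6 T and NK cell markers (NCAM1) were measured.

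Most TRIM proteins are E3 ubiquitin ligases: a RING finger binds the ubiquitin-loaded E2 enzyme, B-boxes and a coiled coil assemble the protein into dimers and larger arrays, and a variable C-terminal part (a PRY-SPRY, NHL or bromodomain region, for example) chooses the target. In myeloid cells the family is best known for restricting viruses and for tuning the RNA and DNA sensing pathways. Several members are induced by interferon, and others act in chromatin, at microtubules or in muscle.

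Because interferon-responsive members are one of the family's hallmarks, the RefSeq promoter windows (GRCh38.p14, 250 bases before to 50 after a gene's start) were searched on both strands for the interferon-stimulated response element, taken as GAAA, any 2 bases and GAAA again. Of 43 members in the promoter table, 8 held it (18.6%), against 4.38% of 27305 genes. Members absent from that table, TRIM22, TRIM29, TRIM4, TRIM28 and TRIM8 among them, were not searched. TRIM2, one of the 8, was below the brightness limit. The stretches of the other 7 are shown so that the letters can be set beside the signals described later. Each is given 5′ to 3′ on the strand of its gene, and the capitals mark the element or its reverse complement.
TRIM21 (chr11:4393663-4393692, minus strand): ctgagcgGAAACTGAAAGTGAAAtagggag
TRIM69 (chr15:44736456-44736485, plus strand): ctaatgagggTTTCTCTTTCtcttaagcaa
TRIM16 (chr17:15683012-15683041, minus strand): acagaggtaaGAAATAGAAAtaaagggtcc
TRIM44 (chr11:35662730-35662759, plus strand): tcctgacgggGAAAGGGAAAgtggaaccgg
TRIM26 (chr6:30213578-30213607, minus strand): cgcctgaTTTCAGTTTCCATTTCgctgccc
TRIM5 (chr11:5685082-5685111, minus strand): atagtttatcTTTCACTTTCctgccctgag
TRIM14 (chr9:98119229-98119258, minus strand): acggccgaggTTTCGGTTTCccttgggagc

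In TRIM21 and TRIM26 the capitals hold 2 overlapping matches. In TRIM21 they lie 18 to 33 bases after the start, whereas in the others they lie before it, at distances between 194 bases for TRIM26 and 17 bases for TRIM14. A match describes these letters only and is not a binding site.

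Signals were compared on the log2 scale after adding 18, the average 25th percentile of the arrays; folds are on that scale and understate those of dim genes. The brightness limit was the 60th percentile of an array, a signal of 116.4 and 124.5 on the arrays with the knock-down RNA and of 125.5 on each of the others. Genes with a pool in which neither array fell short of it are called measured, and the others below the limit, even where a single array passed it. The size rule asked for a 2-fold difference between the pools (1 on the log2 scale), for at least 0.5 the same way in each of the 4 comparisons of 1 array with 1 array, and for a higher pool that reached the brightness limit on both of its arrays. Probe sets differ in brightness for technical reasons, so signals of different genes were not ranked as transcript levels.

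The family as a whole was nearly level between the pools, with 1 gene on each side of the 2-fold limit. Of the 55 members, 35 were measured. TRIM29 rose (at least 1.60-fold higher in the knock-down pool, with the empty-vector signals set at the brightness limit they did not reach) and TRIM59 fell (2.50-fold lower), and the other 33 did not meet the size rule. Over all 10288 measured genes, 2.44% met the rule as higher and 1.10% as lower, so 1 of 35 in each direction is near the background share; in either direction the background was 3.54%. TRIM29 and TRIM68 counted as measured through the knock-down pool alone, and TRIM62 through the empty-vector pool alone. Of the 32 members that reached the limit in both pools, 0 met the rule as higher and 1 as lower, against 1.65% and 0.883% of 9624 such genes. The median log2 difference was 0.03 over the measured members and 0.05 over all measured genes. Leaving out 1 array put the member median at 0.0037 without empty-vector replica 2, at 0.044 without knock-down replica 2, at 0.065 without empty-vector replica 1 and at 0.073 without knock-down replica 1. The median size of the difference, sign ignored, was 0.21 and 0.24, and 32 of the 35 members (91.4%) against 80.6% of all measured genes lay between -0.5 and 0.5.

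**Figure D1:**
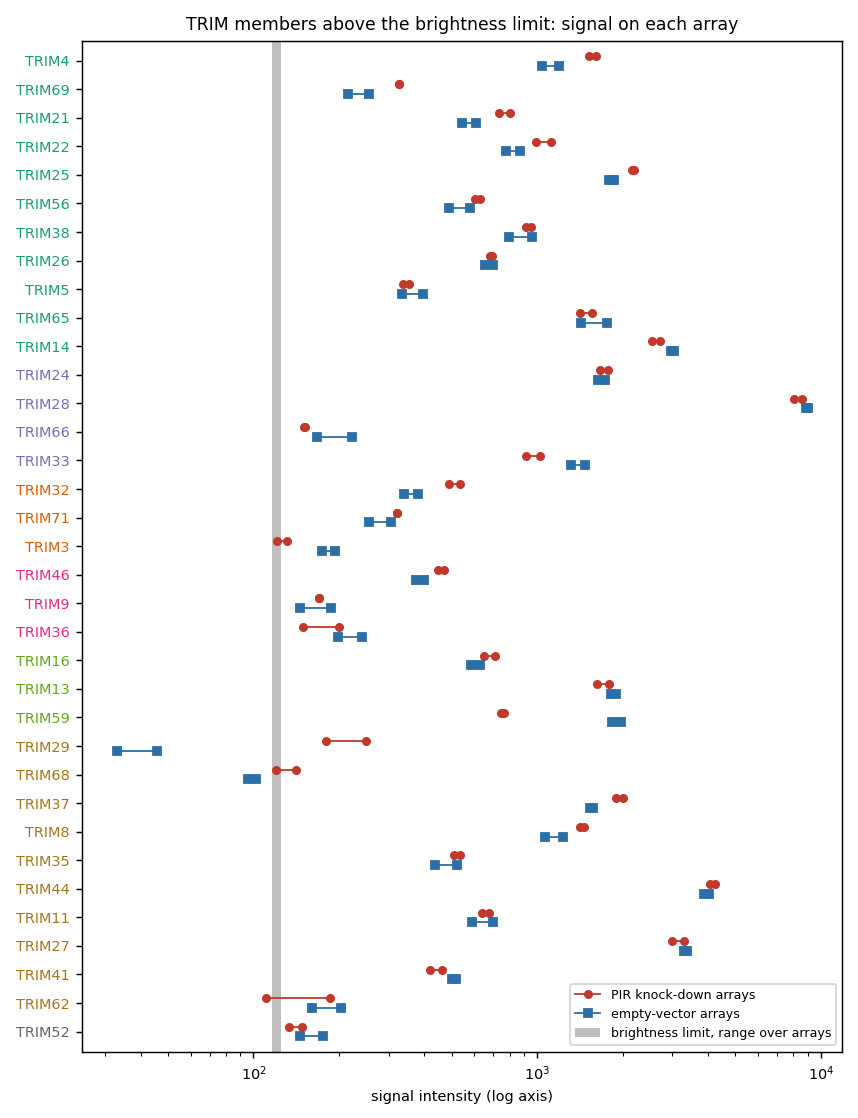
Signal intensity (log axis) of the 35 measured TRIM genes on each array, with red circles for the 2 knock-down arrays and blue squares for the 2 empty-vector arrays; a line joins the arrays of a pool, label colours mark role groups (top to bottom: innate, chromatin, NHL, COS box, ER and autophagy, signalling, other), and the grey band is the brightness limit. TRIM59 and TRIM29 show the widest gaps between the pools, and the empty-vector signals of TRIM29 and TRIM68 lie left of the band.

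On 15 of the 35 members both knock-down arrays lay above both empty-vector arrays (42.9%), against 40.9% of all measured genes. On 9 members both lay below (25.7%), against 31.2%. On the remaining 11 the arrays of the pools overlapped. The median SD between the 2 arrays of a pool, on the log2 scale, over the members was 0.06 with knock-down RNA and 0.11 with empty-vector RNA. Over all measured genes it was 0.07 with knock-down RNA and 0.06 with empty-vector RNA. Empty-vector replica 1 was brighter than replica 2 for 20 of the 35 members (57.1%), against 48.8% of all measured genes.

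TRIM29, a member that lacks the RING finger and is best known from squamous epithelia and, in mouse, from alveolar macrophages, where it restrains innate responses, had signals of 180.1 and 248.3 on the knock-down arrays, against 45.7 and 33.0 on the empty-vector arrays. Both knock-down arrays lay above the brightness limit and both empty-vector arrays well below it, without overlap. The log2 difference of the deposited signals was 2.01, with array-by-array differences from 1.64 to 2.38, and it was at least 0.68 against the brightness limit. Its size depends on the pseudocount: it was 2.45 with none and 1.35 with a pseudocount of 72. The other 2 TRIM29 probe sets did not reach the limit on any array. One of them gave 21.0 and 54.4 on the knock-down arrays, against 25.1 and 11.9 on the empty-vector arrays, and the other 33.3 and 15.4, against 10.7 and 69.0. The rise of TRIM29 thus rests on 1 of its 3 probe sets. Averaging the 3 gave a difference of 0.77, which did not meet the size rule. As TRIM29 is known from epithelia, epithelial markers were looked at. None of KRT5, KRT8, KRT14, KRT18, KRT19, EPCAM and CDH1 was measured, and none was at 0. Their summed signal was 171.2 and 233.6 in the knock-down pool, against 260.3 and 184.7 in the empty-vector pool, so the arrays of the pools overlapped. Single markers went both ways, all far below the limit. CDH1 averaged 15.9 ± 15.9 with knock-down RNA and 2.70 ± 0.14 with empty-vector RNA on its brightest probe set. Its other probe set was lower, at 3.2 and 2.9 on the knock-down arrays, against 18.6 and 7.5 on the empty-vector arrays. KRT14 was also lower, at 4.1 and 2.2, against 28.3 and 8.4. The arrays of the other markers overlapped. In bulk RNA a change in the number of expressing cells and a change in RNA per cell cannot be told apart.

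TRIM59, a ligase with a transmembrane segment known for its high expression in proliferating and tumour cells, had signals of 764.3 and 743.5 on the knock-down arrays, against 1979.8 and 1843.1 on the empty-vector arrays. The arrays of the pools were far apart relative to the gap within each pool. The mean was 753.9 ± 14.7 with knock-down RNA and 1911 ± 96.7 with empty-vector RNA (SD, n = 2 arrays each), and the log2 difference was -1.32, with array-by-array differences from -1.39 to -1.25. A second probe set, annotated to both TRIM59 and its neighbour IFT80 and therefore not counted for either, gave 161.8 and 215.3 on the knock-down arrays, against 367.5 and 401.2 on the empty-vector arrays, a difference of -0.97. IFT80, an intraflagellar transport subunit, had 0.23 on its own brightest probe set. It met neither direction of the size rule.

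Neighbouring genes were set beside both members, with the order of protein-coding genes taken from RefSeq (GRCh38.p14). Next to TRIM59 on chromosome 3, SMC4, a condensin subunit, had signals of 10633.6 and 10619.8 on the knock-down arrays, against 10198.4 and 10435.0 on the empty-vector arrays, a difference of 0.04. On the other side, KPNA4, a nuclear import receptor, had 3771.0 and 3482.0, against 6004.7 and 5282.1, a difference of -0.63 that did not reach the 2-fold limit. Over the alternative settings described below, the KPNA4 difference ran from -0.73 to -0.22. Next to TRIM29 on chromosome 11, NECTIN1, an adhesion molecule, differed by 0.24 with overlapping arrays and OAF by 0.46 without overlap (-0.02 with all its probe sets averaged). None of these neighbours met the size rule.

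**Figure D2:**
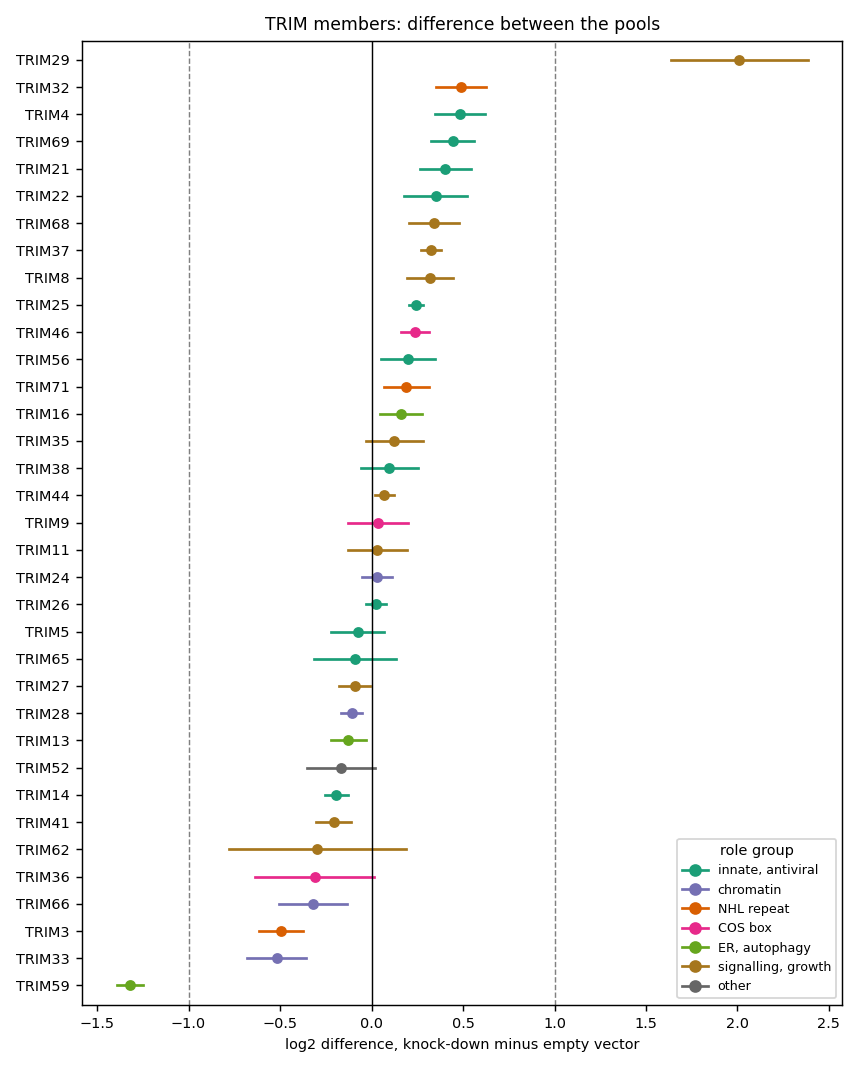
Log2 difference (knock-down minus empty vector) of the 35 measured TRIM genes, sorted, with a line from the lowest to the highest of the 4 array-by-array differences; colours mark role groups and dashed lines the 2-fold limit. TRIM29 at 2.01 and TRIM59 at -1.32 lie outside the limit, and the next on each side are TRIM32 at 0.49 and TRIM33 at -0.52.

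Of 15 genes listed for innate and antiviral defence, 13 were members. TRIM34 was listed but has only shared probe sets, 1 of which met the size rule, as described under other observations. Among the 13 members, 11 were measured and none met the size rule in either direction. The median log2 difference of these 11 was 0.20, with 8 positive and 3 negative values between -0.19 and 0.48. Over all 10288 measured genes the median was 0.05, with 5680 positive. The positive members include TRIM4 and TRIM25, whose measured probe sets differ in sign, so the count is not read as a trait of the group. TRIM22, an interferon-induced antiviral protein, had signals of 988.5 and 1121.5 on the knock-down arrays, against 871.7 and 775.3 on the empty-vector arrays, a difference of 0.35. TRIM21, a cytosolic antibody receptor, had 734.8 and 802.3, against 609.3 and 545.1, a difference of 0.40. TRIM69, known for restricting vesicular stomatitis virus, had 325.9 and 325.3, against 255.7 and 214.9, a difference of 0.44. In these 3 genes the knock-down arrays lay above the empty-vector arrays without overlap, at less than 1.5-fold.

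TRIM25, the ligase that modifies the RNA sensor RIG-I, had 2189.8 and 2152.2 on the knock-down arrays, against 1867.2 and 1796.4 on the empty-vector arrays, a difference of 0.24, but its other measured probe set gave -0.12 with overlapping arrays. TRIM4, which also acts on RIG-I, had the largest difference of this group on its brightest probe set, 0.48, with signals of 1520.5 and 1609.4, against 1193.7 and 1041.5. Its second probe set gave the opposite, 784.7 and 685.6 on the knock-down arrays against 1009.3 and 1061.3 on the empty-vector arrays, a difference of -0.49. No direction can be given for TRIM4.

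TRIM14, an adaptor of the mitochondrial antiviral complex that lacks a RING finger, had 2715.4 and 2541.9 on the knock-down arrays, against 3038.6 and 2971.7 on the empty-vector arrays, a difference of -0.19, whereas its other 2 measured probe sets both gave 0.04. TRIM26 had the smallest difference of the group, 0.02, with 693.9 and 684.2, against 655.6 and 699.5. TRIM5, the retroviral capsid restriction factor, differed by -0.08 and TRIM65, which acts on the sensor MDA5, by -0.09, both with the other sign when the arrays were scaled to a common median, and TRIM38 by 0.10, all with overlapping arrays. TRIM56, a ligase of antiviral signalling, differed by 0.20, and by 0.38 on its second probe set, without overlap on either. TRIM6 and TRIM31 were below the brightness limit.

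Beside the promoter stretches above, the 7 measured members with the element had a median log2 difference of 0.07, between -0.19 for TRIM14 and 0.44 for TRIM69, and 5 of them were positive. The 18 measured members in the promoter table without it had a median of -0.03, with 9 positive. Of the 2 members with overlapping matches, TRIM21 had 0.40 and TRIM26 had 0.02. Members with and without the element thus covered overlapping ranges.

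The chromatin group holds the TIF1 proteins, which join a tripartite motif to a PHD finger and bromodomain. All 4 were measured, none met the size rule, and the median was -0.21. TRIM33, a cofactor of SMAD signalling with a role in blood cell development, had 1026.5 and 917.1 on the knock-down arrays, against 1321.0 and 1478.0 on the empty-vector arrays, a difference of -0.52. Its other 2 measured probe sets gave -0.44 and -0.28, and on all 3 the knock-down arrays lay below the empty-vector arrays without overlap. TRIM28, the KAP1 corepressor recruited by KRAB zinc-finger proteins, had 8024.6 and 8565.8, against 9004.1 and 8882.7, a difference of -0.11 as deposited that was 0.02 when the arrays were scaled to a common median. TRIM24, a nuclear receptor cofactor, had 1667.6 and 1774.8, against 1641.5 and 1732.3, a difference of 0.03, and its other 2 measured probe sets gave -0.30 and -0.43. TRIM66 had 151.5 and 150.9, against 167.8 and 222.2, a difference of -0.32 close to the brightness limit that was 0.00025 with all its probe sets averaged.

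The NHL-repeat proteins bind RNA or substrates through a propeller-shaped C-terminal domain, and 3 of 4 were measured. TRIM32, a ligase mutated in a limb-girdle muscular dystrophy, had 487.6 and 536.2 on the knock-down arrays, against 340.6 and 378.7 on the empty-vector arrays, a difference of 0.49. TRIM3, best known from neurons, had 120.7 and 131.1, against 175.0 and 194.5, a difference of -0.49. These 2 were the next in size after TRIM29, TRIM59 and TRIM33, and had opposite signs without overlap. Each had only 1 measured probe set, and averaging all probe sets gave 0.13 for TRIM32 and -0.10 for TRIM3. One TRIM3 probe set just below the limit had 186.8 and 123.4 on the knock-down arrays, against 136.9 and 77.8 on the empty-vector arrays, a difference of 0.48 with overlap, so no direction can be given for TRIM3. TRIM71, the stem cell protein LIN41, had 320.3 and 319.9, against 254.5 and 304.7, a difference of 0.19. TRIM2 was below the limit.

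Of the 4 members with a microtubule-binding COS box, TRIM46 differed by 0.24 without overlap, TRIM9 by 0.03 and TRIM36 by -0.31, both with overlapping arrays. Of the 20 members below the brightness limit, TRIM67, named after its value was seen, was the only one whose difference passed 1 in size. It had 24.1 and 23.5 on the knock-down arrays, against 82.8 and 168.0 on the empty-vector arrays, a difference of -1.71. Only 1 of its 4 signals reached the brightness limit, so it was not counted. None of the 4 muscle members (TRIM54, TRIM55, TRIM63 and TRIM72) was measured.

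In the endoplasmic reticulum and autophagy group, which also holds TRIM59, TRIM13 is a ligase anchored in that membrane and encoded in a region often deleted in leukaemia. Its brightest probe set had 1626.3 and 1788.4 on the knock-down arrays, against 1826.0 and 1902.1 on the empty-vector arrays, a difference of -0.13. Its other 3 measured probe sets gave -0.46, -0.53 and -0.60, and the knock-down arrays lay below the empty-vector arrays without overlap on all 4. TRIM16, an autophagy protein without a RING finger, differed by 0.16 without overlap, and TRIM50 was below the limit.

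The signalling and growth group had 10 measured members of 12, of which TRIM29 was the only one to meet the size rule. TRIM44, which lacks a RING finger, had 4073.1 and 4224.9 on the knock-down arrays, against 3875.2 and 4024.1 on the empty-vector arrays, a difference of 0.07, and 0.19 on its second measured probe set. TRIM27, a transcriptional corepressor also called RFP, had 3291.9 and 2977.4, against 3371.7 and 3307.1, a difference of -0.09 as deposited and 0.03 when the arrays were scaled to a common median, whereas its other probe sets gave -0.18 and -0.55. TRIM37, a ligase mutated in mulibrey nanism, had 2010.9 and 1897.2, against 1541.5 and 1569.4, a difference of 0.33, and 0.50 on its second measured probe set. TRIM8, a regulator of STAT and NF-kB signalling, had 0.32 on its brightest probe set, and its other 2 measured probe sets gave 0.46, with overlapping arrays, and -0.32 without overlap, so it has no settled direction.

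The remaining measured members of this group were TRIM68 at 0.34 and TRIM41 at -0.21, both without overlap, and TRIM35 at 0.12, TRIM11 at 0.03 and TRIM62 at -0.30, all with overlapping arrays. TRIM68 and TRIM62 were measured only through the pool where they were higher. Against the brightness limit, the knock-down pool was at least 1.03-fold higher for TRIM68. The second measured probe set of TRIM11 gave -0.68 without overlap, with signals close to the brightness limit. TRIM52, in no role group, differed by -0.17 with overlap. The other 9 such members (TRIM7, TRIM10, TRIM15, TRIM17, TRIM40, TRIM42, TRIM51, TRIM58 and TRIM61) were below the limit, as were TRIM45 and TRIM47 of the signalling group.

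Over the 20 members below the brightness limit, single signals ran from 2.5 to 141.4 on the knock-down arrays and from 1.9 to 168.0 on the empty-vector arrays. In 14 of them the arrays of the pools overlapped. No share over all genes below the limit is set beside this count, so it is not read as a trait of the family. Low signal on these arrays does not show that a gene is silent.

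**Figure D3:**
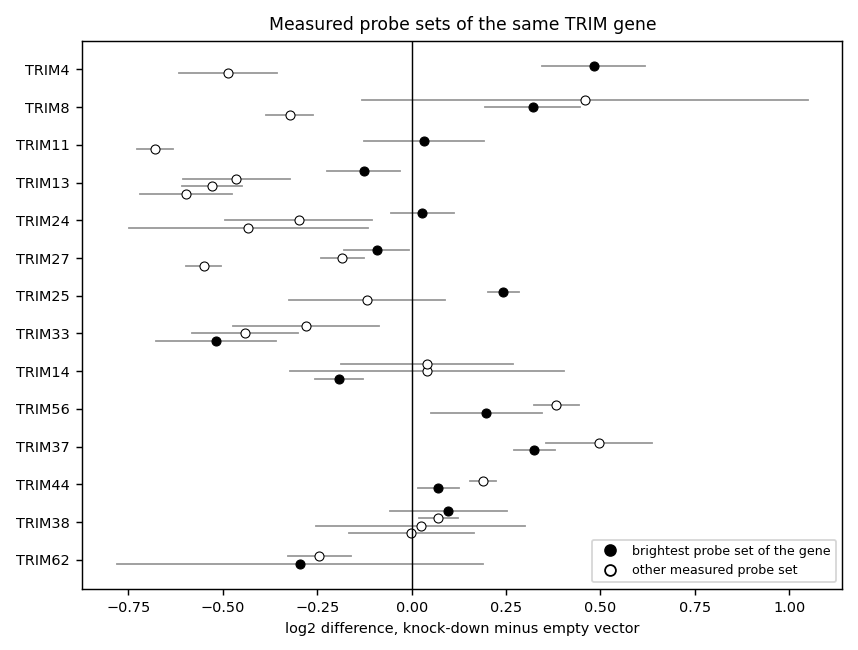
Log2 difference (knock-down minus empty vector) of every measured probe set of the 14 TRIM genes that have more than 1, with a line from the lowest to the highest array-by-array difference; the filled circle is the brightest probe set, which stands for the gene. The lines of TRIM4 and TRIM8 lie wholly on opposite sides of 0 for a pair of probe sets, while the points of TRIM33, TRIM13, TRIM56, TRIM37, TRIM44, TRIM27 and TRIM62 lie on 1 side.

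Probe sets of the same gene gave a check within the family. The 55 members have 128 probe sets, and 14 members had more than 1 measured. In 7 of these 14 all measured probe sets had the same sign, and in 7 the signs differed. The same shares over all genes are not given, so these counts are not read as a trait of the family. In TRIM4 and TRIM8 probe sets were opposite without overlap of the arrays. The gap between the highest and the lowest probe set of a gene ran between 0.05 for TRIM62 and 0.97 for TRIM4. TRIM29 is not among these genes because only 1 of its probe sets was measured, and TRIM59 has 1 probe set of its own.

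By chromosome, 10 members lie on chromosome 11, where 8 were measured, with TRIM29 the only one to meet the size rule and TRIM3 the lowest at -0.49. Chromosome 6 holds 7 members, of which 3 were measured (TRIM26, TRIM27 and TRIM38), with differences from -0.09 to 0.10.

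The enzymes and pathways in which TRIM proteins work were described in the same way, and 3 partner genes met the size rule, against a background of 2.44% of all measured genes as higher and 1.10% as lower. With 1 gene or none in each list, these counts are not read as a trait of a list. Of 12 E2 enzymes looked up, 7 had a probe set of their own and all 7 were measured; UBE2V2 fell and none rose. UBE2V2 is a cofactor with which UBE2N builds non-degradative ubiquitin chains, a kind of chain that TRIM ligases use in antiviral signalling. It had signals of 2663.2 and 2818.8 on the knock-down arrays, against 7002.3 and 7311.1 on the empty-vector arrays, a difference of -1.38. Its other 2 probe sets gave -1.59 and -0.99, and on all 3 the arrays of the pools lay far apart. UBE2N itself differed by -0.15, and by 0.05 on its brightest probe set not ending in _x_at or _s_at. The median over the 7 was 0.12.

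Of 17 measured RNA and DNA sensing partners, IFIH1, the RNA sensor MDA5, rose and none fell on its brightest probe set, with a median of 0.07. IFIH1 had 1059.2 and 1057.2 on the knock-down arrays, against 460.5 and 402.7 on the empty-vector arrays, a difference of 1.26. Another of its probe sets that was measured gave 0.51. With all its probe sets averaged it had 0.36 and did not meet the size rule. The median of the list had the other sign, at -0.06 when knock-down replica 2 was left out and at -0.04 when empty-vector replica 1 was. RIGI, the partner of TRIM25 and TRIM4, differed by 0.18 on its brightest probe set and by 0.52 and 0.62 on the other 2 measured ones, without overlap on any of the 3. MAVS, the mitochondrial adaptor, differed by -0.21 on its brightest probe set, but its other 3 measured probe sets gave 0.08, 0.19 and 0.41, so no direction can be given. CGAS differed by -0.30 without overlap on its brightest probe set. A second CGAS probe set, measured through the empty-vector pool alone, had 122.2 and 100.4, against 281.4 and 266.4. Its difference of -1.18 met the size rule as lower, whereas a CGAS probe set below the limit gave 0.83. Of 8 measured interferon response factors, IRF9, the DNA-binding subunit of the interferon-activated STAT complex, rose and none fell, with a median of 0.24. IRF9 had 364.3 and 443.3, against 169.9 and 212.8, a difference of 1.01 at the 2-fold limit. It was not called with a pseudocount of 72 (0.85), under quantile normalization (0.99), when knock-down replica 2 (0.88) or empty-vector replica 1 (0.86) was left out, or under the 75th percentile brightness limit.

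Of 12 measured partners of KAP1 (TRIM28) in gene silencing none met the size rule, and the median was -0.05 as deposited and 0.08 when the arrays were scaled to a common median. CBX1, a heterochromatin protein, had 1387.1 and 1315.0 on the knock-down arrays, against 2139.9 and 2163.1 on the empty-vector arrays, a difference of -0.66, and CHD3, a remodelling subunit, differed by 0.51. Among family genes known under other symbols, 3 of 10 were measured and none met the rule on its brightest probe set. RNF135, a RIG-I ligase, differed by 0.29 and by 0.44 on its second probe set. PML, the nuclear body protein, differed by 0.36, but its 9 measured probe sets ran from -0.27 to 1.99, so no direction can be given. Most of them were positive, and the negative ones (-0.27 and -0.24) were without overlap. The probe set at 1.99 met the size rule as higher and was measured through the knock-down pool alone.

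**Figure D4:**
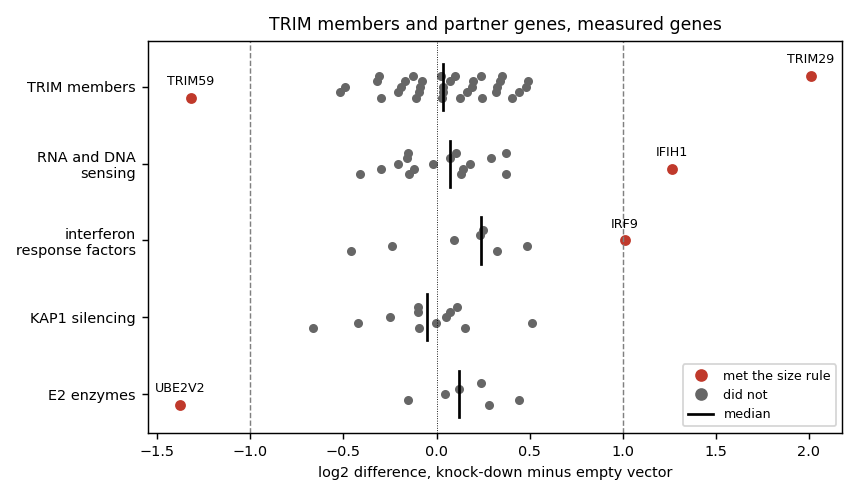
Log2 difference (knock-down minus empty vector) of measured genes, 1 point per gene, for the 35 TRIM members and 4 partner lists; vertical bars are medians, dashed lines the 2-fold limit, and red points met the size rule. The medians lie between -0.05 for the KAP1 partners (0.08 with arrays scaled to a common median) and 0.24 for the interferon response factors, and each red point is named.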

How the data were processed

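The 2 RNA pools were measured on 4 arrays. The submitters' processing notes name GCOS, without a version. The deposited intensity values are linear, 1 per probe set and array, and the authors scaled them: the mean after trimming 2% at each end is 500.07 on every array. This assumes equal total signal in the pools.

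Of 54675 probe sets, 62 controls were left out. Of the rest, 41091 had 1 gene symbol, 1801 several and 11721 none in the platform annotation; all 55 members matched RefSeq by gene ID. Arrays of a pool were averaged on the log2(signal + 18) scale as 1 sample and no test was made. The size rule was tested on simulated data with the same array noise for every gene and none between cultures. That test does not cover noisier dim genes or the error of the culture. Planned protein patterns were not run. The naming rule took members that met the size rule or differed 1.5-fold without overlap, and the 8 brightest. It also took the largest and smallest difference in 3 role groups, and up to 4 genes per partner list. TRIM21, TRIM22, TRIM32, TRIM66, TRIM69, TRIM67, UBE2N, RIGI, MAVS, CGAS, the neighbours and the secondary probe sets were added after their values were seen. The others complete the account. Members and lists were chosen with earlier results of these data known. Python 3.11.15, pandas 2.3.3, numpy 2.4.6 and matplotlib 3.10.9 were used.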

Additional observations from a re-analysis of the deposited data

How the results depend on the processing

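The family counts and medians and the list medians were recomputed under 14 alternatives. So were the differences of the 35 measured members, TRIM67 and the other measured genes described except CGAS. The alternatives were a pseudocount of 72 or none, a brightness limit at the 75th percentile or none, and arrays scaled to a common median or quantile-normalized. Further ones were no 0.5 margin, a limit of 1.5-fold, all probe sets of a gene averaged, and each array left out. The last was the brightest probe set whose identifier ends in neither _x_at nor _s_at. TRIM59 met the size rule as lower in all 14, with differences from -1.37 to -1.20. TRIM29 met it as higher in 12; the count of higher members was 0 under the 75th percentile and 0 with all probe sets averaged. The count of lower members was 2 without the brightness limit and ran from 1 to 2 with arrays left out, the second gene being TRIM67, at -1.71 with no limit and at -2.15 without empty-vector replica 1. Without the brightness limit all 55 members were counted and their median was 0.093. Under median scaling the median was 0.16 for the members and 0.17 for all measured genes, against 0.03 and 0.05 as deposited, so small differences are relative to that shift; TRIM28 then had 0.02 and TRIM27 0.03. Of the 35 measured members, 9 had the other sign with all probe sets averaged, 4 under median scaling, 3 with the brightest probe set not ending in _x_at or _s_at, 2 under quantile normalization, and 0 with either pseudocount. Leaving out arrays put the member median between 0.0037 and 0.073. No paired analysis was possible because the replica numbers mark arrays of 1 RNA pool per condition and no test was made. The 4 arrays limit the precision, and signals below the brightness limit carry the least certain folds.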

Other observations

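Some TRIM genes have only probe sets annotated to several genes, so they were not members. TRIM34 shares its probe sets with the TRIM6-TRIM34 read-through transcript. One of these had 163.1 and 146.8 on the knock-down arrays, against 71.5 and 14.7 on the empty-vector arrays, a log2 difference of 1.68. This probe set met the size rule as higher and was measured through the knock-down pool alone. Its empty-vector signals did not reach the brightness limit, and against that limit the knock-down pool was at least 1.20-fold higher. The other was below the brightness limit at 0.72, also without overlap. A probe set shared by TRIM39 and RPP21 had 1764.2 and 1784.3 on the knock-down arrays, against 2074.6 and 2089.8 on the empty-vector arrays, a difference of -0.23. Another, shared by TRIM39 and the TRIM39-RPP21 read-through transcript, differed by -0.13 with overlapping arrays. A probe set of TRIM73 and STAG3 relatives differed by 0.38 without overlap. Of 2 probe sets shared by TRIM73 and TRIM74, both below the limit, one differed by 1.91 and the other by -0.43. A probe set shared by TRIM13 and KCNRG differed by -0.72, the same sign as the 4 probe sets of TRIM13. These values were looked at after the members had been described.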
